A study of Mus musculus with 22 samples.

Results

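The regions described here are the promoters of long noncoding RNA (lncRNA) genes that carried histone H3 acetylated at lysine 27 (H3K27ac) in KL cells, and they number 523 of 34063 united H3K27ac regions on chromosomes 1 to 19. Members were selected on the data: overlapping peaks of the 3 H3K27ac libraries were united, and a region was kept when at least 2 libraries had a peak in it, when it lay within 2.5 kb of a transcription start site (TSS) of a lincRNA, antisense, bidirectional-promoter or processed-transcript gene, and when it lay more than 2.5 kb from the TSS of any protein-coding gene. Of the 19162 regions with a peak in at least 2 libraries, 13035 lay at a protein-coding TSS, 5185 were distal to any annotated TSS and 523 were members. A peak was found in all 3 libraries at 357 members and in 2 libraries at the other 166.

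The 3 libraries came from BcorΔE9-10 KL cells (lineage-negative, cKit+ Sca1- myeloid progenitors of the bone marrow). The donors were male C57BL/6 mice that carried scl-Cre-ERT, a tamoxifen-inducible Cre driven by a stem cell promoter, together with a floxed copy of the X-linked gene Bcor (Bcorfl/y). They received tamoxifen intraperitoneally at 1 mg per day for 5 days at 3 to 6 months of age, which removes exons 9 and 10 of Bcor and leaves a truncated protein, and KL cells were taken 20 weeks later. Per the methods 3 such mice were used, and GEO's titles give replicate numbers 1 to 3. The Cre acts in stem cells, from which the sorted progenitors descend, and the share of unrecombined cells was not measured here. The other 19 of the 22 listed samples were not analysed here, and no control genotype enters any comparison, so nothing below bears on the effect of Bcor loss.

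H3K27ac is laid down by the acetyltransferases p300 and CBP on nucleosomes that flank active promoters and enhancers. Long noncoding RNA genes are transcribed by RNA polymerase II and often spliced like messenger RNAs, and several of them serve as the precursors of microRNAs (miRNAs) or of small nucleolar RNAs (snoRNAs), which guide the chemical modification of ribosomal RNA. Others act as RNA, such as Malat1 in nuclear speckles and Neat1 in paraspeckles, and for most the function is unknown.

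The DNA under the strongest summit is shown for 6 members because they span the range of promoter types described below. The summit is the base with the highest pileup in a peak. Each sequence is the 300 bases centred on the strongest summit, read from GRCm38 on the strand of the lncRNA, and capitals mark matches on either strand to the 14 short motifs that were searched. Fbxl12os had the highest fold enrichment of all members, Malat1, Mir17hg and Dleu2 are CpG-rich promoters of well-known lncRNAs, and Neat1 and Mir142hg lack CpG richness. Fbxl12os lies at chr9:20607390-20607689 (plus strand), Malat1 at chr19:5803120-5803419 (minus), Mir17hg at chr14:115041390-115041689 (plus), Dleu2 at chr14:61682048-61682347 (minus), Neat1 at chr19:5845067-5845366 (minus) and Mir142hg at chr11:87756279-87756578 (plus).
Fbxl12os: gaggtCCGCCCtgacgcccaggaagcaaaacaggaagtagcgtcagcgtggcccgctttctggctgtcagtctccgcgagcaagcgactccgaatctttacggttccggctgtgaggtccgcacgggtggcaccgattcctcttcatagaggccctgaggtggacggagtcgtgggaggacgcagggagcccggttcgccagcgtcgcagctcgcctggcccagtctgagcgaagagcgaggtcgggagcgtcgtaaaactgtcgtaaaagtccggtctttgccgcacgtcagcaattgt
Malat1: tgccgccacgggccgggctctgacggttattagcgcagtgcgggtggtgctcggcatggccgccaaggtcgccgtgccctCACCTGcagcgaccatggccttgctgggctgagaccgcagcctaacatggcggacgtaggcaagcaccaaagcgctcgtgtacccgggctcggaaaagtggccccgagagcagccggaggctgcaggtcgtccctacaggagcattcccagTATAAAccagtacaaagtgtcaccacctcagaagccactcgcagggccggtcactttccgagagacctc
Mir17hg: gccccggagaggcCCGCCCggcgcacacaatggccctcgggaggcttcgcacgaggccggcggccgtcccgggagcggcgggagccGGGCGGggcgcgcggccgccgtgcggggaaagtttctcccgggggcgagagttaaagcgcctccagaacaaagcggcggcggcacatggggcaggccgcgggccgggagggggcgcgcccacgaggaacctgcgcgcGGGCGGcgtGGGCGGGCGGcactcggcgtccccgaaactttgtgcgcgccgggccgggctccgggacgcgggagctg
Dleu2: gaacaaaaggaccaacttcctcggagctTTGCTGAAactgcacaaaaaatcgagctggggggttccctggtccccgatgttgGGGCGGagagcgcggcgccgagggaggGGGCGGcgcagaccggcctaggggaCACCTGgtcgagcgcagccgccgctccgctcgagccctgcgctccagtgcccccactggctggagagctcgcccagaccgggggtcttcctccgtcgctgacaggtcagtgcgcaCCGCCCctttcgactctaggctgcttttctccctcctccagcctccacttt
Neat1: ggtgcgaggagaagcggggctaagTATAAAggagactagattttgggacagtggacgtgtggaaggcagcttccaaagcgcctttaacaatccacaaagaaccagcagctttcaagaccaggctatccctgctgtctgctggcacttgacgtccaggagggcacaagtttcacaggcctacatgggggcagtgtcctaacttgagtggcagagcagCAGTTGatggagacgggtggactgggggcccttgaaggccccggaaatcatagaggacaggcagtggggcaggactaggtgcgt
Mir142hg: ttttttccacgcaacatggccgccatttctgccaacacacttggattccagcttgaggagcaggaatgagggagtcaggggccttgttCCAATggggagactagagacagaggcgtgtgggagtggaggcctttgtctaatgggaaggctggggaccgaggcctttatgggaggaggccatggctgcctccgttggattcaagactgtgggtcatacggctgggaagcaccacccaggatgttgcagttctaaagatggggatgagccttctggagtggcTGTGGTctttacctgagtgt

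The Mir17hg window held 50 CpG dinucleotides and 5 matches to GGGCGG, the core of SP/KLF sites. The Fbxl12os, Dleu2 and Malat1 windows held 31, 25 and 24 CpGs, whereas those of Neat1 and Mir142hg held 8 and 6. Malat1 and Neat1 each held 1 TATAAA and 1 E-box (CAGNTG), and Fbxl12os held 1 GGGCGG. Mir142hg held 1 CCAAT and 1 RUNX core (TGTGGT), and Dleu2 held 3 matches to GGGCGG, 1 E-box and 1 C/EBP-like TTNNGCAA. These are matches of letters and say nothing of which proteins were bound.

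Several members lie at the start of miRNA precursors, and the mature miRNAs they encode are shown with the seed, bases 2 to 8, in capitals. The sequences are RefSeq entries on GRCm38.p6, grouped by host gene.
mmu-miR-17-5p (Mir17hg): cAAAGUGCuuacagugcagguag
mmu-miR-20a-5p (Mir17hg): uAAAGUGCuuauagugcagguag
mmu-miR-18a-5p (Mir17hg): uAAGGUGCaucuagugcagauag
mmu-miR-19a-3p (Mir17hg): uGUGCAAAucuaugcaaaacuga
mmu-miR-19b-3p (Mir17hg): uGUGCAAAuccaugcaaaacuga
mmu-miR-92a-3p (Mir17hg): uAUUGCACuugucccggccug
mmu-miR-15a-5p (Dleu2): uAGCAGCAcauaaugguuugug
mmu-miR-16-5p (Dleu2): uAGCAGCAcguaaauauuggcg
mmu-let-7a-5p (6720427I07Rik): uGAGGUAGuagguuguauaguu
mmu-let-7b-5p (Lncppara): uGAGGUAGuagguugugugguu
mmu-miR-142a-3p (Mir142hg): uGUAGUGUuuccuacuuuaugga
mmu-miR-155-5p (Mir155hg): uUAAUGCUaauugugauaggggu
miR-17 and miR-20a share the seed AAAGUGC, miR-19a and miR-19b share GUGCAAA, and miR-15a and miR-16 share AGCAGCA. The let-7 seed GAGGUAG is encoded at 2 of the promoters shown, 6720427I07Rik and Lncppara.

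Depth recovered from the background of the peak lists, taking fragments of 200 bp, was 18.04 to 19.26 M reads, the peaks on chromosomes 1 to 19 numbered 22998 to 25516 per library, and no summit was called on fewer than 8 to 9 fragments. The cell type labels were checked at protein-coding TSSs. All 7 progenitor genes on the list (Kit, Gata2, Myb, Runx1, Spi1, Cebpa and Mpo) had a peak within 2.5 kb of a TSS in all 3 libraries. None of the 4 non-haematopoietic genes had one, and none of the 3 mature myeloid genes had a peak in all 3 libraries, with Ngp called in 1. The single lymphoid marker examined, Cd5, had a TSS peak in all 3 libraries at fold enrichments of 5.12, 4.06 and 5.85, although Cd5 was among the lineage antigens depleted in the sort, and the part of other cells in the results below was not tested.

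The lncRNA gene set was first surveyed to ask how many of its promoters were acetylated. Of 9065 lncRNA genes on chromosomes 1 to 19, 440 had a member at a TSS, which is 4.85% of the genes examined. With a stricter limit on the peaks, a −log10 q of at least 5, there were 304 members in place of 523, at 279 genes. A further 1234 genes (13.6%) lay at an acetylated region that also had a protein-coding TSS within 2.5 kb, so their signal could not be told apart from that of the coding neighbour, and 7391 had no region in 2 libraries. For comparison, 9979 of 20807 protein-coding genes (48.0%) had such a region. Among gene types, 266 of 5209 lincRNA genes (5.11%), 107 of 2913 antisense genes (3.67%) and 67 of 753 processed-transcript genes (8.90%) had a member. None of the 190 bidirectional-promoter genes had a member, since 135 of them (71.1%) lay at an acetylated region with a coding TSS, which the selection removed.

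The closest gene was a lincRNA at 307 members, an antisense gene at 133 and a processed transcript at 83. A single member was found at 339 genes and several at 101, up to 4 at Malat1 and at Gm44238, which shares 3 of its regions with Lockd. The region overlapped the lncRNA TSS itself at 210 members (40.2%), and the other 313 lay beside it. Members were 223 to 4470 bp wide with a median of 595 bp, against 715 bp at protein-coding promoter regions and 498 bp at distal regions.

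Fold enrichment, the height of the summit over the local background within a library as the peak caller gave it, ranged from 2.53 to 33.9 among the members (mean of the libraries with a peak). The highest value was at Fbxl12os, an antisense gene on chromosome 9, in a region of 1029 bp at 20606979 to 20608007 that overlapped the TSS. The replicates gave 35.1, 34.9 and 31.8, with a mean of 33.9 ± 1.85 (SD, n = 3), from 105, 108 and 100 fragments. The libraries differed there by far less than the distance to the typical member, whose mean was 5.08. Gm6410 on chromosome 8 followed with 31.7, 26.5 and 36.4 (mean 31.5 ± 4.97, SD, n = 3), and 1700096K18Rik on chromosome 5 with 26.3, 29.1 and 28.6 (28.0 ± 1.503, SD, n = 3). In each of the 3 libraries these regions lay far above the class median, but they were chosen for their high mean over the same libraries.

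The next 3 members were 1810026B05Rik, the strongest processed transcript, at 25.9 ± 0.980 (SD, n = 3), 1700031P21Rik at 25.2 ± 5.40 (SD, n = 3) and Malat1 at 22.05 ± 1.83 (SD, n = 3). The 1810026B05Rik region lies 14482 bp from a TSS of Chd2, which encodes a chromatin remodeller. Gm12974, Gm14321, D230017M19Rik and Gm11205 completed the 10 strongest members with means of 21.3, 20.8, 20.1 and 20.1. Of these 10 regions, 7 overlapped the lncRNA TSS and 9 were CpG-rich at the summit, Gm14321 being the exception. At 1700031P21Rik and Gm12974 the strongest summit lay at -1325 and -2422 bp from the closest TSS, that is upstream. Within these same regions the summit nearest to a TSS had a mean fold enrichment of 10.4 and 7.27. The same choice lowered the mean at Malat1 to 7.40, at Gm6410 to 24.6 and at 1810026B05Rik to 22.3. The order of the strongest members thus depends on which summit is taken. Gm12974 also had a separate region on the TSS, with a mean of 3.09 in 2 libraries.

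The 5 widest members were the regions of Gm26887 (4470 bp), Neat1 (3981 bp), 5033406O09Rik (3698 bp), Malat1 (3553 bp) and Dleu2 (2908 bp). Their mean fold enrichments were 15.4 ± 3.05, 18.02 ± 5.42, 10.0 ± 0.679, 22.05 ± 1.83 and 17.2 ± 5.98 (SD, n = 3 each). Each was called in all 3 libraries. At Gm26887 the region began 2373 bp from the TSS and its strongest summit lay at -3591 bp. The summit of this region closest to the TSS had a mean fold enrichment of 3.85.

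To place the members among the other regions, fold enrichment was compared between classes within each library, among regions that passed the same requirement of a peak in at least 2 libraries. The median fold enrichment of members was 5.18, 5.00 and 5.67 in replicates 1, 2 and 3. At protein-coding promoter regions it was 7.27, 7.41 and 8.45, and at distal regions 4.40, 4.30 and 4.88. Members were below coding promoters and above distal regions in each of the 3 libraries. The ratio to coding promoter regions was 0.686 ± 0.0229 (SD, n = 3) and the ratio to distal regions was 1.17 ± 0.00788 (SD, n = 3). With 3 libraries the exact two-sided sign-flip permutation test cannot go below p = 0.25, the value it gave for both ratios.

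**Figure D1:**
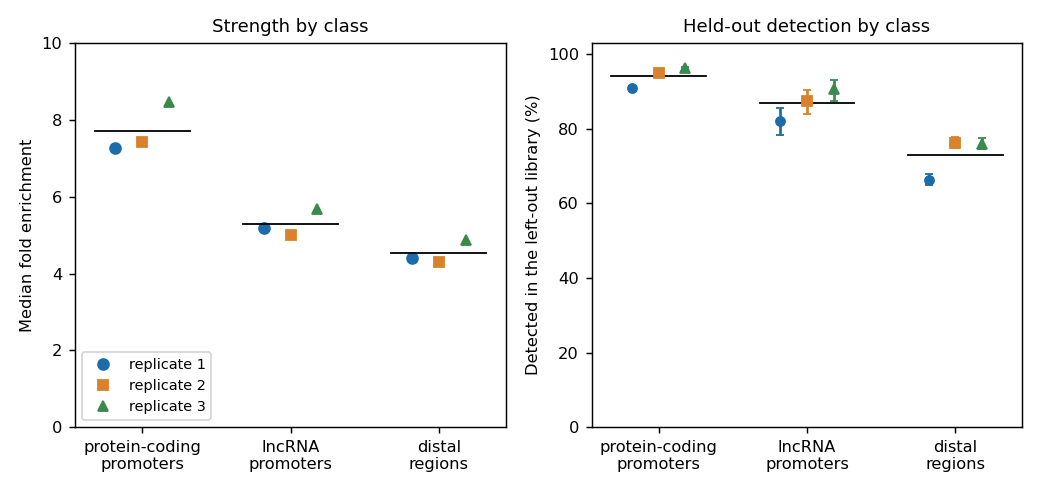
Left, median H3K27ac fold enrichment of protein-coding promoter regions, lncRNA promoter regions and distal regions in each library (points) with the mean of the 3 libraries (black line). Right, share of regions with a peak in both other libraries that also had one in the library left out, with Wilson 95% intervals. In both panels the lncRNA promoter regions sit between the other classes in every library, with medians of 5.00 to 5.67 and shares of 82.1% to 90.6%.

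Detection was next examined in a library whose own peak was not needed for a region to be kept. Its peaks still helped to set the edges of the united regions, so it was not independent of the choice. Of the members with a peak in both other libraries, 82.1% had one in replicate 1 (Wilson 95% interval 78.2% to 85.4%), 87.5% in replicate 2 (83.9% to 90.4%) and 90.6% in replicate 3 (87.3% to 93.1%). Coding promoter regions were detected at 90.9%, 94.9% and 96.2%, and distal regions at 66.4%, 76.3% and 76.0%. The difference to coding promoter regions was -7.31 ± 1.64 percentage points and that to distal regions 13.8 ± 2.33 (SD, n = 3), each with the same sign in 3 of 3 libraries and at the smallest exact p of 0.25. These intervals cover counting error only. Within a class the shares have the same numerator, the regions with a peak in all 3 libraries. The differences are therefore not separate observations, and no conclusion was drawn from their p-value.

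Detection was also read at like strength. Among regions whose mean fold enrichment in the other libraries was below 4, the order of members and coding promoter regions differed between libraries. Replicate 1 had a peak at 65.0% of 60 members (52.4% to 75.8%), 52.6% of coding promoter regions (49.0% to 56.3%) and 45.9% of distal regions (42.6% to 49.3%). The intervals of members and coding promoter regions overlapped there. For the same classes the shares were 58.8%, 66.9% and 53.6% in replicate 2, and 76.1%, 76.6% and 56.8% in replicate 3. At 4 to 6, the left-out replicate 1 had a peak at 72.5% of members (65.7% to 78.4%), 77.7% of coding promoter regions (76.1% to 79.1%) and 64.9% of distal regions (62.8% to 66.9%). The order of the classes was the same in replicate 2, at 83.8%, 87.1% and 76.4%, and in replicate 3, at 87.8%, 92.1% and 79.2%. At 6 to 10 the shares were 95.8%, 97.7% and 93.0% in replicate 1, and 99.04%, 99.78% and 99.55% in replicate 3, where distal regions were not below members, and from 10 upward all 67 members were detected in replicate 1, as were all 65 in replicate 2 and all 59 in replicate 3. Over all regions with peaks in at least 2 libraries 72.9% had one in all 3, against 68.3% of members (64.2% to 72.1%), 83.9% of coding promoter regions and 46.9% of distal regions.

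Known lncRNA genes were then taken from 5 lists. In the list of snoRNA and snRNA host genes, 9 of the 17 genes matched to lncRNA models on chromosomes 1 to 19 had a member, against 4.85% of all lncRNA genes, 6 (Snhg1, Snhg3, Snhg9, Snhg10, Gas5 and Zfas1) lay at an acetylated region with a coding TSS within 2.5 kb, and Snhg14 and Snhg18 had no peak. Snhg16, listed in the annotation as 1810032O08Rik, was the strongest at 10.3, 13.8 and 17.9 (14.0 ± 3.79, SD, n = 3). Snhg8 was the steadiest of the strong ones at 13.5, 12.3 and 13.6 (13.2 ± 0.709, SD, n = 3). The other 7, Epb41l4aos, Snhg17, Snhg15, Snhg6, Snhg12, Snhg20 and Snhg5, had means from 10.7 down to 7.17, all in 3 libraries. The 9 means were thus all above the member median of 5.08, and the ranges of neighbours in this order overlapped.

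Of the 16 matched genes listed as miRNA hosts, 8 had a member against 4.85% of all lncRNA genes, Mir22hg lay beside a coding TSS, Mirt2 had a peak in 1 library and the other 6 had none, among them the neural hosts Mir124a-1hg, Mir124-2hg and Mir9-3hg. The annotation places no miRNA gene in 3 of the 16, Mirt1, Mirt2 and 2610203C22Rik, and of the 13 that hold one 7 had a member. Dleu2, the precursor of miR-15a and miR-16-1, had 14.0, 13.5 and 24.1 (17.2 ± 5.98, SD, n = 3). Mir17hg, the precursor of the miR-17 to miR-92 cluster that promotes proliferation of blood progenitors, had 15.4, 14.6 and 18.2 (16.0 ± 1.92, SD, n = 3). Replicate 3 was the highest at both genes, and at Dleu2 it stood well above the other libraries. Mir142hg, whose miRNA is abundant throughout the blood lineages, had 6.84, 11.1 and 15.7 (11.2 ± 4.44, SD, n = 3), a difference of more than 2-fold between libraries. With the summit closest to the TSS within the strongest region, the means were 8.72 at Mir17hg and 3.90 at Mir142hg. Mir670hg and Mir155hg had means of 8.31 and 7.29 in 3 libraries, as had Mirt1, which holds no annotated miRNA, at 7.73, while Mir99ahg (5.44) and A930003A15Rik (4.01) were called in 2.

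The list of nuclear, p53-related and cell cycle lncRNAs held the strongest known genes. Of 9 matched genes 6 had a member, against 4.85% of all lncRNA genes, Tug1 lay beside a coding TSS, Pvt1 had a peak in 1 library and Miat had none. Malat1 had 20.99, 21.003 and 24.2, and Neat1 had 13.7, 16.2 and 24.1. Norad (2900097C17Rik in the annotation), which binds Pumilio proteins, had 18.1, 9.80 and 18.8 (15.6 ± 4.99, SD, n = 3), and Lncpint, a p53-induced transcript, had 18.1, 9.92 and 16.9 (14.97 ± 4.41, SD, n = 3). At both of these replicate 2 was the low library. Lockd, transcribed downstream of the cell cycle inhibitor gene Cdkn1b, had 11.0, 11.6 and 13.6 (12.04 ± 1.36, SD, n = 3). Trp53cor1, known as lincRNA-p21 beside Cdkn1a, was far weaker at 4.84, 3.75 and 3.15 (3.91 ± 0.859, SD, n = 3), with no overlap between its libraries and those of the other 5 genes. With the summit closest to the TSS within the strongest region, the means were 7.40 at Malat1, 7.73 at Lncpint and 6.13 at Lockd. A separate Lockd region on the TSS had a mean of 4.70.

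Among 13 matched imprinted and cluster lncRNAs 1 had a member and 11 had no peak, beside 4.85% with a member and 7391 of 9065 without a region among all lncRNA genes. The member was Kcnq1ot1, the antisense transcript that silences its imprinted neighbours, at 9.63, 9.26 and 9.83 (9.57 ± 0.289, SD, n = 3), inside Kcnq1 on the opposite strand. Meg3, Rian, H19, Airn, Nespas, Hotair, Hottip, Hoxa11os, Hoxb5os, Hoxaas3 and Dnm3os had no peak in any library, and Hotairm1 had one in 1 library. No peak means that a summit stayed under the caller's threshold at this depth, not that acetylation was absent.

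Among lncRNAs of blood and immune cells, 6 of 14 matched genes had a member, against 4.85% of all lncRNA genes. Morrbid, annotated as Gm14005, supports the survival of short-lived myeloid cells and had 8.77, 8.19 and 9.49 (8.81 ± 0.650, SD, n = 3), or a mean of 5.23 at the summit closest to the TSS. Lncppara, a let-7 precursor, had 10.9, 7.75 and 8.85 (9.17 ± 1.61, SD, n = 3). AI506816, Ptgs2os2 and Gm19590 had means of 6.37, 5.62 and 3.996 in 3 libraries, and 5830428M24Rik had 4.74 in 2. Ptprv, Ptgs2os and Gm13822 lay beside a coding TSS, Mirt2 and Nron had a peak in 1 library, and Gm26917, Gm42418 and Eprn had none. A further 9 symbols of this list matched no gene model.

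**Figure D2:**
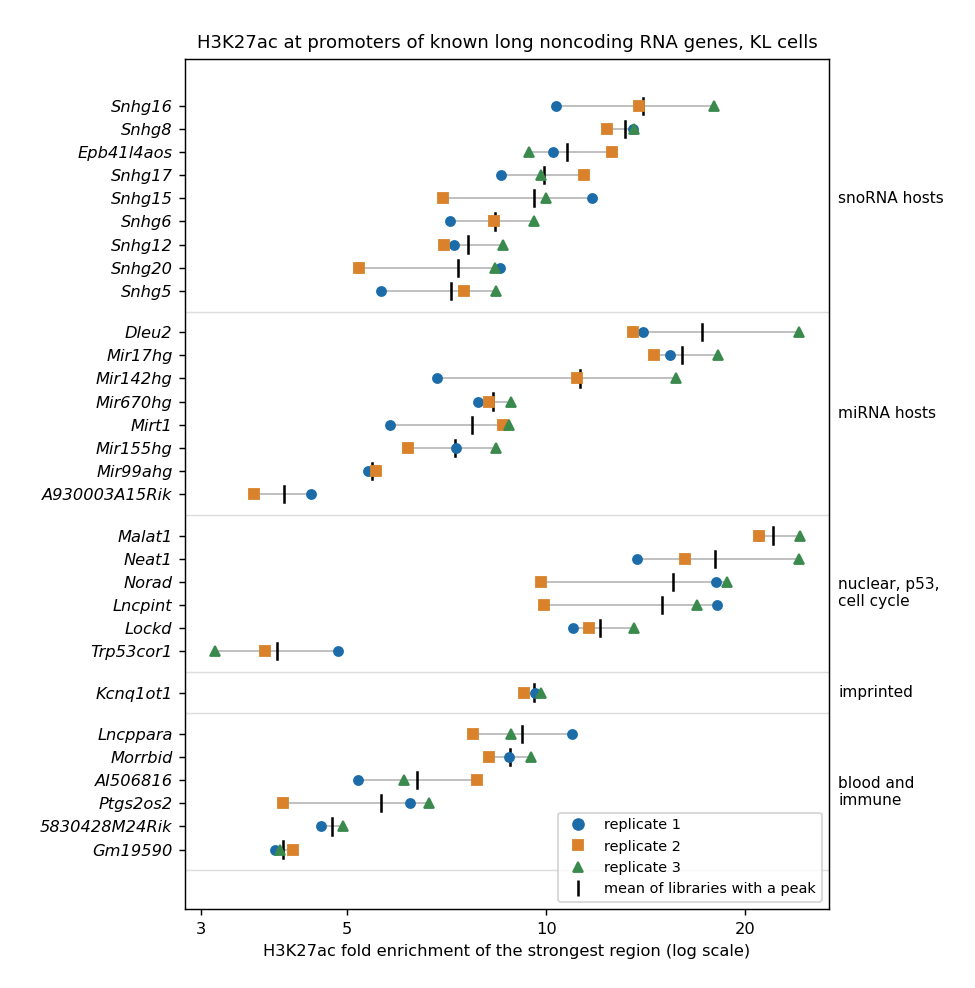
H3K27ac fold enrichment (log scale) in each library at the strongest member region of the lncRNA genes of the 5 lists, grouped by list and ordered by the mean (black tick) of the libraries with a peak. Malat1 (22.05), Neat1 (18.02) and Dleu2 (17.2) are highest and Trp53cor1 (3.91) is lowest, while Mir99ahg, A930003A15Rik and 5830428M24Rik show points in 2 libraries.

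Small RNA hosts were also taken from the annotation, a grouping added after values had been seen, as lncRNA genes with a miRNA or snoRNA gene inside them on the same strand. A member was found at 21 of 109 miRNA hosts (19.3%, Wilson 95% interval 13.0% to 27.7%) and at 14 of 67 snoRNA hosts (20.9%, 12.9% to 32.1%), against 405 of 8893 genes with neither (4.55%, 4.14% to 5.01%) and 4.85% of all lncRNA genes. Host genes had more annotated transcripts, a mean of 3.90 and 3.79 against 1.502, and the part of this in the shares was not tested. Beyond the lists, the strongest hosts were 6720427I07Rik, which holds let-7a-1, let-7d and let-7f-1, at 19.9, 15.003 and 20.6 (18.5 ± 3.07, SD, n = 3), and Dancr, which holds Snora26, at 13.7, 14.6 and 16.9 (15.04 ± 1.68, SD, n = 3). E130102H24Rik, the miR-101a host, had 9.14, 12.2 and 20.3 (13.9 ± 5.75, SD, n = 3), a spread that again ended with replicate 3 highest. Gm20732, the host of miR-30d, had 10.9 ± 1.29 and A330023F24Rik, the host of miR-29b-2 and miR-29c, had 5.10 ± 0.490 (SD, n = 3 each).

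Several of these promoters were made of more than 1 region. At Malat1 the strongest region spanned 3553 bp and was flanked by regions with means of 8.11 and 4.33 in all 3 libraries and of 3.54 in 2. In replicates 1 and 2 it consisted of separate peaks on each side of the TSS, an upstream peak at 20.99 and 21.003 and a downstream peak at 9.95 and 8.91, whereas replicate 3 had a single peak across the TSS. The strongest summit lay at -598 bp from the TSS. The summit of this region nearest to any Malat1 TSS had a mean fold enrichment of 7.40, so that the high value belongs to the upstream flank. At Mir17hg the peaks within 10 kb lay upstream of the annotated TSS, with the strongest summit at -1339 bp. Dleu2 had acetylated regions at distinct start sites, with means of 17.2 ± 5.98 and 13.8 ± 1.05 (SD, n = 3 each) and summits 104 and 102 bp downstream of their TSSs.

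**Figure D3:**
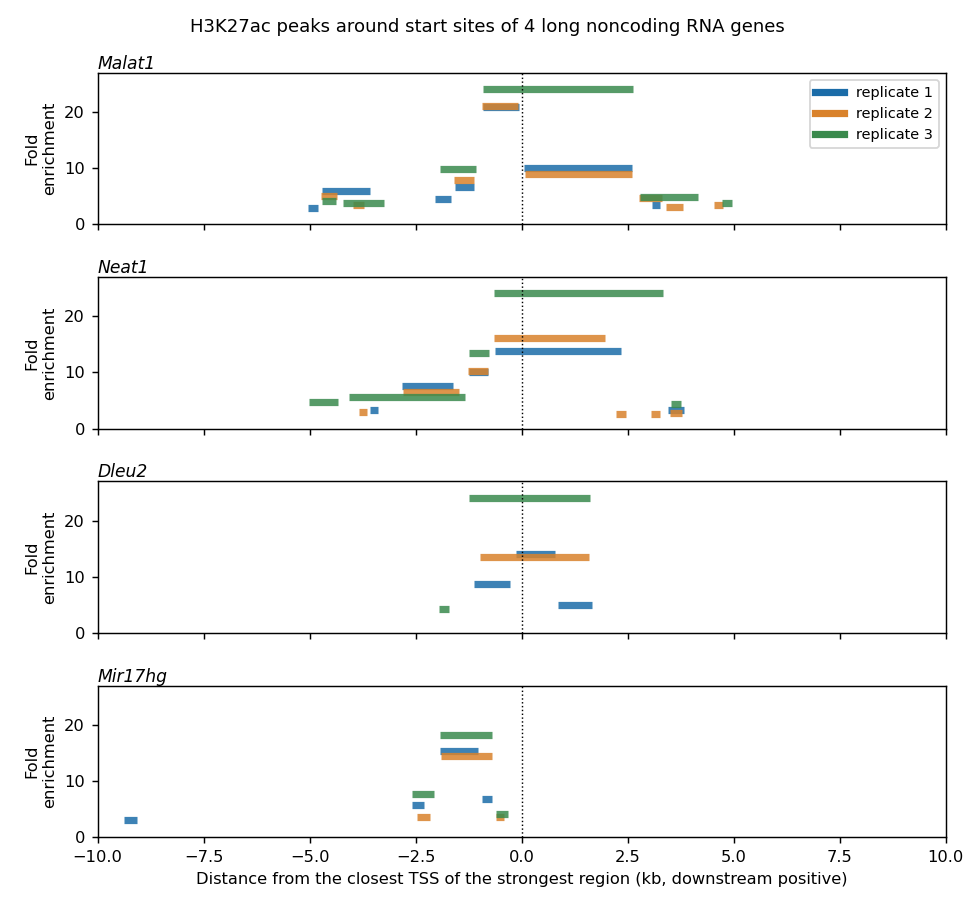
H3K27ac peaks of each library within 10 kb of the TSS closest to the strongest region of Malat1, Neat1, Dleu2 and Mir17hg, each bar spanning a peak at the height of its fold enrichment, with distance in kb and downstream positive. At Malat1 replicates 1 and 2 have separate peaks on each side of the TSS, and at Mir17hg the peaks lie upstream, with the strongest at 15.4, 14.6 and 18.2.

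The position of the strongest summit was compared with the closest TSS. It lay downstream at 311 of 523 members (59.5%, Wilson 95% interval 55.2% to 63.6%) and within 500 bp at 291 (55.6%). Among the 210 members that overlapped the TSS, the summit was downstream at 142 (67.6%, 61.0% to 73.6%), at a median of 84.5 bp, and within 500 bp at 93.8%. At coding promoter regions that overlapped a TSS it was downstream in 79.7% (78.8% to 80.6%), at a median of 121 bp. Distance to the TSS was part of the selection, so the shares within 500 bp describe the regions and were not tested.

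**Figure D4:**
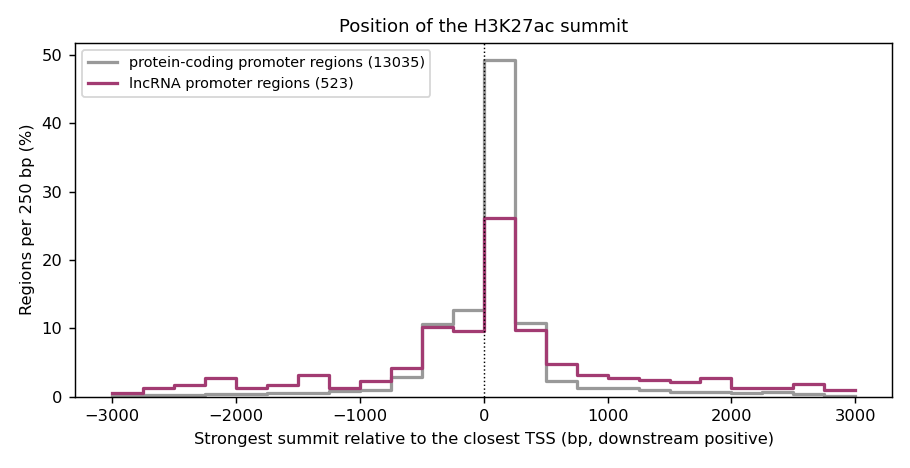
Share of regions (%) by the position of the strongest summit relative to the closest TSS in bins of 250 bp, for the 523 lncRNA and the 13035 protein-coding promoter regions, with downstream positive. Both classes have their highest bin just downstream of the TSS, and the lncRNA regions have the lower one, with 59.5% of summits downstream in all.

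Members that overlapped the TSS were stronger than those beside it, with median fold enrichments of 6.14, 6.25 and 7.24 against 4.78, 4.45 and 4.92. The ratio was 1.39 ± 0.0949 (SD, n = 3), above 1 in 3 of 3 libraries at the smallest exact two-sided p of 0.25. The TSS-overlapping members nonetheless remained below coding promoter regions that overlapped a TSS, at a ratio of 0.678 ± 0.00466 (SD, n = 3; same test and p). Of the members on a TSS 80.5% (74.6% to 85.3%) were called in all 3 libraries, against 60.1% (54.5% to 65.3%) of those beside one. Wider regions are more likely to reach a TSS. Members on a TSS had a median width of 715.5 bp against 514 bp, and a mean of 1.71 summits against 1.27. The part of this in the strength and detection was not tested.

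Sequence was examined in the 300 bp window around the strongest summit, which the selection did not use. A window was called CpG-rich when at least 50% of its bases were G or C and the observed to expected CpG ratio was at least 0.6. By this measure 136 members (26.0%, Wilson 95% interval 22.4% to 29.9%) were CpG-rich, against 66.0% (65.2% to 66.8%) of coding promoter regions, 4.24% (3.73% to 4.83%) of distal regions and 47.3% of all regions. The share was 41.9% at members on a TSS and 15.3% at those beside one, and it was 43.4% for processed transcripts, 26.7% for lincRNAs and 13.5% for antisense genes.

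CpG-rich members were the stronger ones, with medians of 7.25, 7.10 and 8.30 against 4.78, 4.52 and 5.20 at CpG-poor members, a ratio of 1.56 ± 0.0389 (SD, n = 3) that was above 1 in 3 of 3 libraries. When regions of like CpG content were compared, CpG-rich members stood at 0.780 ± 0.0176 of CpG-rich coding promoter regions and CpG-poor members at 0.937 ± 0.0306 of CpG-poor ones (SD, n = 3 each). Against distal regions the ratios were 1.26 ± 0.0184 for CpG-rich and 1.08 ± 0.0276 for CpG-poor members. The direction was the same in all 3 libraries for each of these ratios, and each had the smallest exact two-sided p of 0.25. The difference between members and coding promoters was thus smaller within each CpG class than the overall ratio of 0.686.

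The order of the classes differed between motifs. GGGCGG, the SP/KLF core, was found in 24.3% of member windows (20.8% to 28.1%), in 46.3% of coding promoter windows and in 8.70% of distal windows. CCGGAAG, an ETS site, was found in 7.46% (5.50% to 10.0%), 8.83% and 3.43%. The RUNX core TGTGGT was found in 20.3% of members (17.045% to 23.9%), 11.5% of coding promoter and 22.8% of distal windows, GATA sites (AGATAA) in 9.18%, 5.13% and 11.3%, C/EBP sites (TTNNGCAA) in 11.1%, 6.35% and 11.0%, and TATAAA in 9.37%, 3.88% and 11.0%. RUNX, GATA and C/EBP proteins are central regulators of myeloid progenitors.

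Over all 19162 windows these shares were 35.0% for GGGCGG, 7.23% for CCGGAAG, 14.96% for TGTGGT, 7.11% for AGATAA, 7.81% for TTNNGCAA and 6.08% for TATAAA. Within CpG-rich windows the SP/KLF share was 60.3% at members (51.9% to 68.1%) and 61.8% at coding promoters. Within CpG-poor windows it was 11.6% at members (8.80% to 15.2%), 16.2% at coding promoters (15.2% to 17.3%) and 6.91% at distal regions. The RUNX share within CpG-poor windows was 23.5% at members (19.6% to 28.0%), 18.7% at coding promoters and 23.1% at distal regions. Within CpG-poor windows GATA sites were found in 11.6% of members, 11.0% of coding promoters and 11.6% of distal regions, C/EBP sites in 12.7%, 10.1% and 11.02%, and TATAAA in 10.6%, 8.48% and 11.2%, and the interval of members overlapped those of both other classes for each of these 3. CCAAT was found in 22.2% of members, the E-box CAGNTG in 51.2%, the AP-1 site TGANTCA in 5.93%, CACGTG in 6.12%, and TCGCGA, the ZBTB33 core, in 1.91%. In the same order, the shares of all windows were 20.4%, 50.8%, 5.35%, 5.59% and 2.94%. TGACGTCA (CRE), GCGCATGC (NRF1) and AAGATGGC (YY1) were each found in 1.53% of members or fewer, against 0.538%, 0.965% and 2.57% of all windows.

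**Figure D5:**
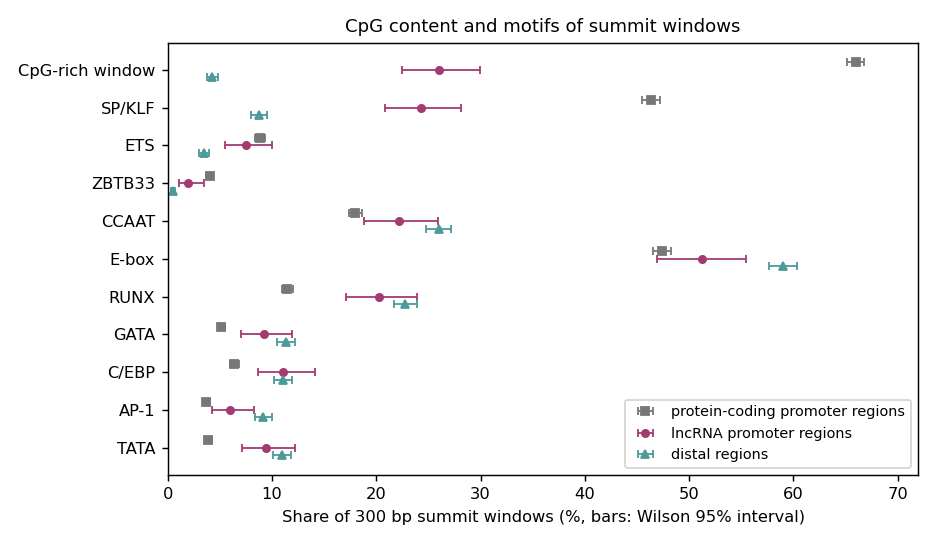
Share (%) of 300 bp summit windows that are CpG-rich or hold a motif on either strand, in protein-coding promoter, lncRNA promoter and distal regions, with Wilson 95% intervals. The lncRNA promoter regions lie between the other classes for CpG richness (26.0%) and SP/KLF (24.3%), and their intervals overlap those of distal regions for RUNX, GATA, C/EBP and TATA.

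In their surroundings, 400 members (76.5%) lay outside protein-coding genes, 112 inside a coding gene on the opposite strand to the lncRNA, 10 inside one on the same strand and 1 inside genes on both strands. The share inside was 23.5% for members and 66.6% for distal regions. For coding promoter regions it was 84.2%, but there the region's own gene was counted, so that share is not comparable with the others. Among members it was 4.89% for lincRNAs, 69.2% for antisense genes and 19.3% for processed transcripts. The lincRNA and antisense types are themselves defined in part by position relative to other genes, so these shares describe the annotation. Members outside coding genes were stronger than those inside, with a median ratio of 1.22 ± 0.00957 (SD, n = 3; 3 of 3 libraries, smallest exact p of 0.25). The CpG-rich share was 31.8% outside and 7.32% inside, and the part of this in the ratio was not tested. The closest coding TSS lay at a median of 21.2 kb, within 5 kb at 74 members and beyond 100 kb at 57. Another H3K27ac region of at least 2 libraries lay within 12.5 kb of 330 members (63.1%), against 66.5% of coding promoter regions and 71.2% of distal regions. Repeats masked in the reference covered a median of 7% of the summit window, and in 17 members they covered most of it.

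Of the 7 progenitor genes, 3 had a member within 100 kb of a TSS, beside 1252 of 20807 protein-coding genes (6.02%). Beside Myb, the transcription factor of immature blood cells, Gm33619 had 5.82, 5.75 and 7.37 (6.31 ± 0.918, SD, n = 3) at 25.6 kb and a second region of 3.49 in 2 libraries, Gm40608 had 4.57 ± 0.647 at 27.8 kb and Gm33728 had 5.65 ± 0.266 at 90.9 kb (SD, n = 3 each). Beside Kit, the receptor by which the cells were sorted, Gm43101 had 5.30, 4.87 and 8.35 (6.17 ± 1.90, SD, n = 3) at 80.7 kb. That distance is to a GENCODE TSS of Kit, whereas the curated RefSeq mRNA start of Kit lay 154881 bp away. Measured from the RefSeq start, this region would be outside the 100 kb limit. Beside Mpo, the myeloperoxidase gene, the Mir142hg regions lay at 35.8 and 38.3 kb, and the antisense gene Gm11505 had 4.30 and 4.23 in replicates 2 and 3 at 3.30 kb.

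Among the 166 members called in 2 libraries, the mean fold enrichment had a median of 4.27 and did not exceed 8.18, against a median of 5.93 at the 357 called in all 3. The strongest of them were Gm15910, an antisense gene within Msrb3, with 5.95 and 10.4 in replicates 2 and 3, AU020206 with 7.63 and 5.90 in the same libraries, Gm44659 with 5.12 and 7.94 in replicates 1 and 2, AC132452.2 with 6.96 and 5.91 in replicates 2 and 3, and Gm36677 with 6.83 and 5.85 in replicates 1 and 3. A peak was missing in replicate 1 at 78 members, in replicate 2 at 51 and in replicate 3 at 37. A further 445 regions that met the distance rules had a peak in 1 library, at a median of 3.89, and were not members.

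Near the distance limits, the outermost members were those of 2010110E17Rik at 2499 bp (4.29 ± 0.681) and AC138228.2 at 2489 bp (6.62 ± 1.99) from the lncRNA TSS (SD, n = 3 each). Just beyond 2.5 kb lay a region of AC132251.1 at 2503 bp (5.51 ± 1.21, SD, n = 3) and one of Trp53cor1 at 2515 bp (4.497 ± 1.28, SD, n = 2). The members closest to a coding TSS were Gm28809 at 2506 bp from Cd9 (3.40 ± 0.695, SD, n = 3) and Gm11201 at 2525 bp from Ksr1 (4.07 ± 0.535, SD, n = 2). Regions of Gm11505 and Gm44710, at 2489 and 2459 bp from a coding TSS, were excluded at means of 4.26 and 7.97.

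The libraries ranked the members alike, and across the 357 members in all 3 Spearman's rho was 0.747 for replicate 1 with 2, 0.771 for 1 with 3 and 0.772 for 2 with 3. These are descriptions across regions, which share background and sequence and are not independent replicates. Coding promoter regions gave 0.880 to 0.895 and distal regions 0.496 to 0.579. The median coefficient of variation of a member over the libraries was 17.1%. Replicate 3 gave the highest value at 191 of the 357 (53.5%), replicate 1 at 85 and replicate 2 at 81, and its median was the highest of the 3 libraries in every class. At 21 members (5.88%) the highest library exceeded the lowest by more than 2-fold, among them E130102H24Rik, both Mir142hg regions, Snhg7os at 5.18, 7.14 and 11.2, and Gm4258, the miR-181a-1 host, at 3.74, 4.17 and 7.81.

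The class of a region rests on the gene types of GENCODE M21. In RefSeq, 22 members (4.21%) had the start of a curated mRNA within 2.5 kb, and at 14 of these the mRNA had the same gene name as the lncRNA. They included Ptpmt1, a mitochondrial phosphatase gene that GENCODE types as a processed transcript, at 18.7, 18.7 and 21.6 (19.7 ± 1.65, SD, n = 3), and 3 regions at Zswim6. Leaving out the 22 gave 501 members, a mean of library medians of 5.26 in place of 5.29, and a CpG-rich share of 25.0%.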

How the data were processed

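H3K27ac was measured by ChIP-seq in 3 libraries of BcorΔE9-10 KL cells. Per the submitters' processing notes and the methods, the authors trimmed reads with cutadapt 1.7, aligned them to GRCm38 with Bowtie2, called peaks in each library with MACS2 2.1.1 and used deepTools 2.5.3. The control and the caller's settings are not given in the sources used here. The deposited peak lists hold fold enrichment at the summit (a ratio to local background), the −log10 of the p-value and of the q-value, and a score equal to 10 times the latter, cut to a whole number, in 100% of peaks. The largest q-value was 0.0499.

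Peaks on chromosomes 1 to 19 were united where they shared at least 1 bp. TSSs of all transcripts came from GENCODE M21, and sequence, mature miRNAs and mRNA starts from RefSeq GRCm38.p6. Fragments at summits were solved from fold enrichment and p-value within 0.02 on the −log10 scale. Where a region held several summits the strongest was used. Shares have Wilson 95% intervals, and differences between classes were tested with an exact two-sided sign-flip permutation test over the 3 libraries. P-values measure only the spread between these libraries. Scripts ran in Python 3.11.15 with numpy 2.4.6, scipy 1.17.1 and matplotlib 3.10.9 and were tested on simulated data.

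Named genes were those of the 5 lists, the 10 strongest and 5 widest members, the strongest of each gene type, the 5 strongest with a peak in 2 libraries, and the 2 nearest to each distance limit. Small RNA hosts, genes near progenitor genes and genes with RefSeq mRNA starts or a wide spread were named after their values were seen. Members and lists were chosen with earlier results of these data known. Alternatives were a stricter q-value, other TSS windows and starts, peaks in all 3 libraries, reciprocal overlap and leaving out each replicate. Named genes were also read at the summit closest to the TSS within their strongest region. One list of marker genes is not reported here.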

Additional observations from a re-analysis of the deposited data

Results flagged for a closer look

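Chromosome X was outside the comparisons above. The same selection found 13 lncRNA promoter regions there among 365 regions with a peak in at least 2 libraries, and 8 of the 13 had a peak in all 3. The strongest were at Gm6787 (13.7, 15.3 and 18.7 in replicates 1, 2 and 3), at Jpx (17.1, 13.9 and 15.9) and at Ftx (12.3, 11.2 and 10.4). Jpx and Ftx are noncoding genes of the X-inactivation centre. No control library was compared with these values.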

How the results depend on the processing

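Of 88 values of 9 results under alternative settings, 77 stayed within the limits set for a change, 11 moved and 0 reversed. The limits were wide. Taking the 5′ end of each gene alone gave 663 members at 529 genes, and a peak in all 3 libraries gave 357 members. These counts were still within the limits, so staying within them does not mean that a count was stable. With a −log10 q of at least 5 there were 304 members at 279 genes, with a median fold enrichment of 6.90 and a CpG-rich share of 37.2%. Requiring a peak in all 3 libraries gave 5.95 and 32.5%. The CpG-rich share was 31.2% with a TSS window of 1 kb and 32.7% with the 5′ end of each gene alone. A reciprocal overlap of 50% gave a share of 60.7% in all 3 libraries. Leaving out each replicate gave 396 to 432 members at 342 to 377 genes, a median of 5.40 to 5.72 and a CpG-rich share of 28.8% to 30.3%. The ratio was then 0.683 to 0.705 to coding promoter regions and 1.20 to 1.22 to distal regions. Leaving out members near a curated RefSeq mRNA start, an alternative chosen after seeing the data, gave 501 members. Taking the summit closest to the TSS within the strongest region lowered 19 of 50 named genes, 14 of them by more than the spread between replicates. Other regions of a gene were not searched. At Snhg8, counted as unchanged at 13.2, a separate region on the TSS had a mean of 5.74. No paired analysis was possible because a single group of libraries enters. Summits with fewer than 8 to 9 fragments were not called, so weaker acetylation was not detectable at this depth.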
